A study of Arabidopsis thaliana with 9 samples.

Results

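The plant cell wall modification genes described here are the members of 6 families whose annotated symbols start with TBL, EXPA, EXPB, XTH, CSL or GH9. Membership was decided by symbol alone, on probe sets that name 1 gene, and the root hair expansins EXPA7 and EXPA18 were left out. This gave 65 loci of the 13286 that a single-gene probe set measures, each with 1 probe set: 22 TBL, 8 EXPA, 4 EXPB, 9 XTH, 7 CSL and 15 GH9 genes. The RefSeq gene table lists 146 genes with such symbols, so the members are the part of each family that the annotation ties to a single-gene probe set. The arrays may hold more of these genes, since 8730 probe sets are left unnamed here. RNA of Arabidopsis thaliana seedlings was measured on Affymetrix ATH1 arrays, with 3 arrays for each of 3 genotypes. The groups were wild type (Col-0), a jmj24 mutant (At1g09060, stock N521260) from a stock centre, and a line with JMJ24 under the 35S promoter (35S::JMJ24), made by Agrobacterium-mediated transformation. The labels name a stock for the mutant only and give no number of independent lines, so how many lines each genotype stands for is not known. Seedlings were 9 days old by the extraction protocol, whereas the growth protocol names 10 to 14 days. All samples shared 1% glucose and temperatures of 23 °C by day and 21 °C by night. JMJ24 belongs to the jumonji family and was studied for its part in transposon silencing. The level of JMJ24 itself was not analysed here, since the annotation names no probe set for it.

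Growing plant cells are enclosed by cellulose microfibrils set in a matrix of hemicelluloses and pectins. CSL proteins are glycosyltransferases related to cellulose synthase, and several of them make the backbones of mannan and xyloglucan. TBL proteins include enzymes that add acetyl groups to xylan, mannan and other wall polymers. Expansins (EXPA and EXPB) loosen the wall without cutting its polymers, XTH enzymes cut xyloglucan and rejoin or release the ends, and GH9 enzymes are endoglucanases that act on cellulose-like chains. In seedlings these families take part in cell elongation of hypocotyls and roots and in the growth of root hairs.

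All levels are log2 values as the authors deposited them, and a difference of 1 is a 2-fold change. The brightest of 27 unspiked bacterial control probe sets, at 5.8, was taken as a mark of background. It was exceeded by 44 of the 65 members, or 67.7%, against 69.4% of all named loci. The 21 dim members comprised 9 GH9, 6 TBL, 2 EXPB, 2 XTH, 1 EXPA and 1 CSL gene, and the size of a difference in these is uncertain. Of the tissue markers looked up, the green tissue gene RCA (13.4 to 13.5 over the 9 arrays), the root gene PYK10 (13.4 to 13.6) and the guard cell gene FAMA (8.13 to 8.64) were measured and lay above the mark. They are 1 of 6 green tissue, 1 of 8 root and 1 of 3 guard cell markers listed, and the rest had no named single-gene probe set. Root hair, xylem, flower, seed and epidermis markers were not analysed here. In RNA of whole seedlings, fewer cells of a type and less RNA per cell cannot be told apart. Within genotypes, the arrays numbered 1 stood apart from those numbered 2 and 3 on the first component of variation. Wild type 1 lay farthest on their side and wild type 3 farthest on the other. Without wild type 1 the difference from wild type turned sign in 12 of 65 members in jmj24 and in 17 in 35S::JMJ24. Single arrays moved many of the small differences below by more than 1.5 times, and values without such an array are given for the members described at length.

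In the fit without the replicate number, no member passed the test of a difference between genotypes. With that number fitted as a block, XTH18 alone passed, in jmj24 (limma adjusted p = 0.0436). The counts below are from the fit without it. With limma, at a Benjamini-Hochberg adjusted p under 0.05 over 22746 probe sets, 0 of 65 members passed in jmj24 against wild type, where 1.14% of all probe sets did. The count was also 0 of 65 in 35S::JMJ24 against wild type (0.0176% of all), in jmj24 against 35S::JMJ24 (0.246% of all) and in the F test over the 3 genotypes (0.708% of all). The lowest adjusted p was 0.219 in jmj24 and 0.508 in 35S::JMJ24, and no member reached a 2-fold difference in either line. At an unadjusted p under 0.05, limma gave 8 members in jmj24, which is 12.3% of the members against 11.7% of all probe sets. The same threshold gave 7 members in 35S::JMJ24, or 10.8% against 7.43%. It gave 7 by the F test, or 10.8% against 9.46%. The shares in jmj24 and by the F test lie near the background. By direction, 7 of the 8 in jmj24 and all 7 in 35S::JMJ24 were higher than wild type, 10.8% of members in each line against 5.46% and 4.98% of all probe sets. The 2 counts are not separate evidence, since both use the same wild-type arrays and both hold TBL32, XTH18, XTH33 and GH9C1. The values of the 3 jmj24 arrays did not overlap those of wild type in 8 members (12.3%, against 16% of all probe sets), and those of 35S::JMJ24 did not in 8 (12.3%, against 11.7%). All 8 in 35S::JMJ24 were higher, against 7.25% of all probe sets, and among them EXPB5, GH9A4 and GH9B11 are dim.

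**Figure D1:**
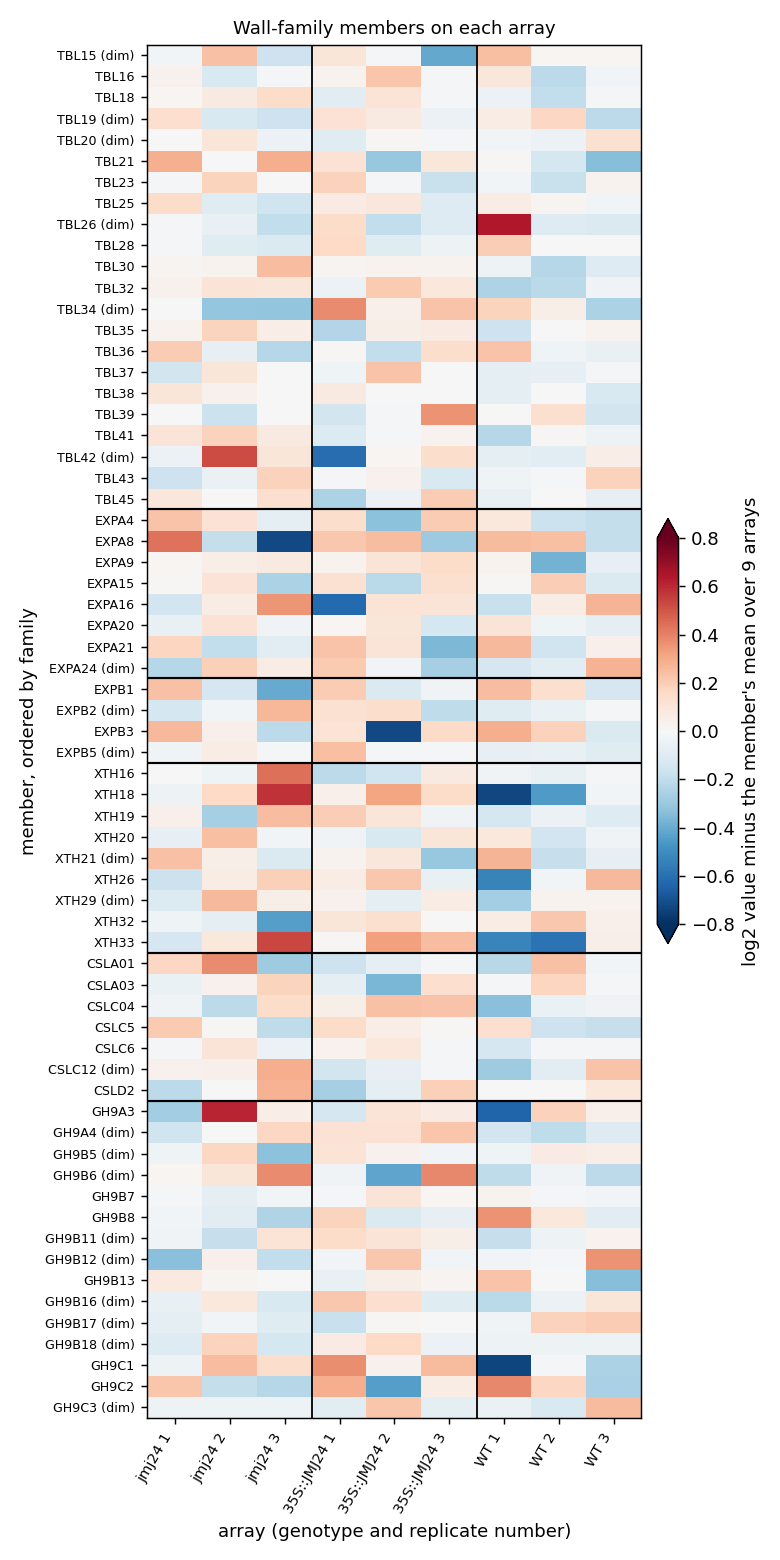
Log2 value of each of the 65 members (rows, by family in the order TBL, EXPA, EXPB, XTH, CSL, GH9) on each of the 9 arrays (columns), minus that member's mean over the 9 arrays; "dim" marks the 21 members below the mark of background. Few rows change colour with genotype, and XTH18, XTH33 and GH9C1 have their lowest values on wild-type arrays.

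The data bound how large an undetected difference could be. The 95% interval of the difference, not adjusted for the number of genes, lay within 2-fold in either direction for 64 of 65 members in jmj24 (all but XTH18) and for 63 in 35S::JMJ24 (all but XTH18 and XTH33). It lay within 0.5 on the log2 scale for 46 members in jmj24 and for 50 in 35S::JMJ24. These counts are over all members, the 21 dim ones included, in which the interval may not bound the true difference. The half-width of the interval ran from 0.132 to 0.607, with a median of 0.268. Members varied more between arrays of a genotype than other probe sets did, with a median SD within genotypes of 0.164 against 0.117 for all probe sets. The expansins had the widest spread, with a median SD of 0.218 for EXPA and 0.201 for EXPB, and the TBL genes the narrowest, with 0.128.

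Of the 6 families, XTH had the member with the largest difference from wild type in either line. Of 9 measured, 8 had a higher mean in jmj24 than in wild type and 6 in 35S::JMJ24. None passed the test in the fit without the replicate number. The median difference was 0.124 in jmj24 and 0.0795 in 35S::JMJ24, against 0.00609 and 0.0202 over all probe sets. Without the arrays numbered 1 the family median was 0.125 and 0.0199, and without jmj24 1 it was 0.224 in jmj24. XTH18 (AT4G30280) belongs to a group of XTH genes known mainly from roots. Its values were 10.41, 10.62 and 11.04 in jmj24, 10.49, 10.77 and 10.60 in 35S::JMJ24, and 9.73, 10.00 and 10.44 on the arrays of wild type. All 35S::JMJ24 values lay above wild type, while the lowest jmj24 value lay just under the highest wild-type value. Wild type had a mean of 10.1 ± 0.356 (SD, n = 3), jmj24 of 10.7 ± 0.317 and 35S::JMJ24 of 10.6 ± 0.14. The difference from wild type was 0.63 in jmj24 (1.55-fold, SE 0.195, 95% interval 0.19 to 1.07, limma adjusted p = 0.219). It was 0.57 in 35S::JMJ24 (1.48-fold, 95% interval 0.13 to 1.01, adjusted p = 0.608). With the replicate number fitted as a block, the limma adjusted p was 0.0436 in jmj24 and 0.217 in 35S::JMJ24. Without wild type 1 these differences were 0.47 and 0.40, and with any 1 array left out they lay between 0.46 and 0.82 in jmj24 and between 0.40 and 0.76 in 35S::JMJ24.

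XTH33 (AT1G10550) encodes an XTH known to reside at the plasma membrane. It read 7.35, 7.57 and 8.02 in jmj24, 7.50, 7.81 and 7.73 in 35S::JMJ24, and 6.96, 6.90 and 7.53 in wild type. Wild type 1 and 2 were the lowest of the 9 arrays, and wild type 3 overlapped both lines. The difference from wild type was 0.52 in jmj24 (SE 0.202, adjusted p = 0.349), or 0.33 without jmj24 3, and 0.55 in 35S::JMJ24 (adjusted p = 0.623). XTH32 (AT2G36870) belongs to the XTH group whose tested members act mainly as hydrolases. It went the other way in the mutant, with 8.60, 8.57 and 8.20 in jmj24, 8.73, 8.77 and 8.64 in 35S::JMJ24, and 8.69, 8.85 and 8.68 in wild type. All jmj24 values lay below both other genotypes, array 3 farthest. Its difference was -0.29 against wild type (SE 0.109, adjusted p = 0.336) and -0.26 against 35S::JMJ24 (adjusted p = 0.747), with -0.03 between 35S::JMJ24 and wild type. Without jmj24 3 the first values were -0.16 and -0.13. XTH19 (AT4G30290), which lies next to XTH18 on chromosome 4, read 0.10 in jmj24 and 0.18 in 35S::JMJ24 (differences, adjusted p = 0.776 and 0.732), the first turning to -0.02 without jmj24 3. XTH16 read 0.17 in jmj24, -0.06 in 35S::JMJ24 and 0.23 between the lines. Without jmj24 3, at 8.75 its highest array, the values in jmj24 and between the lines were 0.02 and 0.08. XTH21, below the mark of background, read 0.05 and -0.07 and had the largest p among XTH genes (F test, adjusted p = 0.914).

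**Figure D2:**
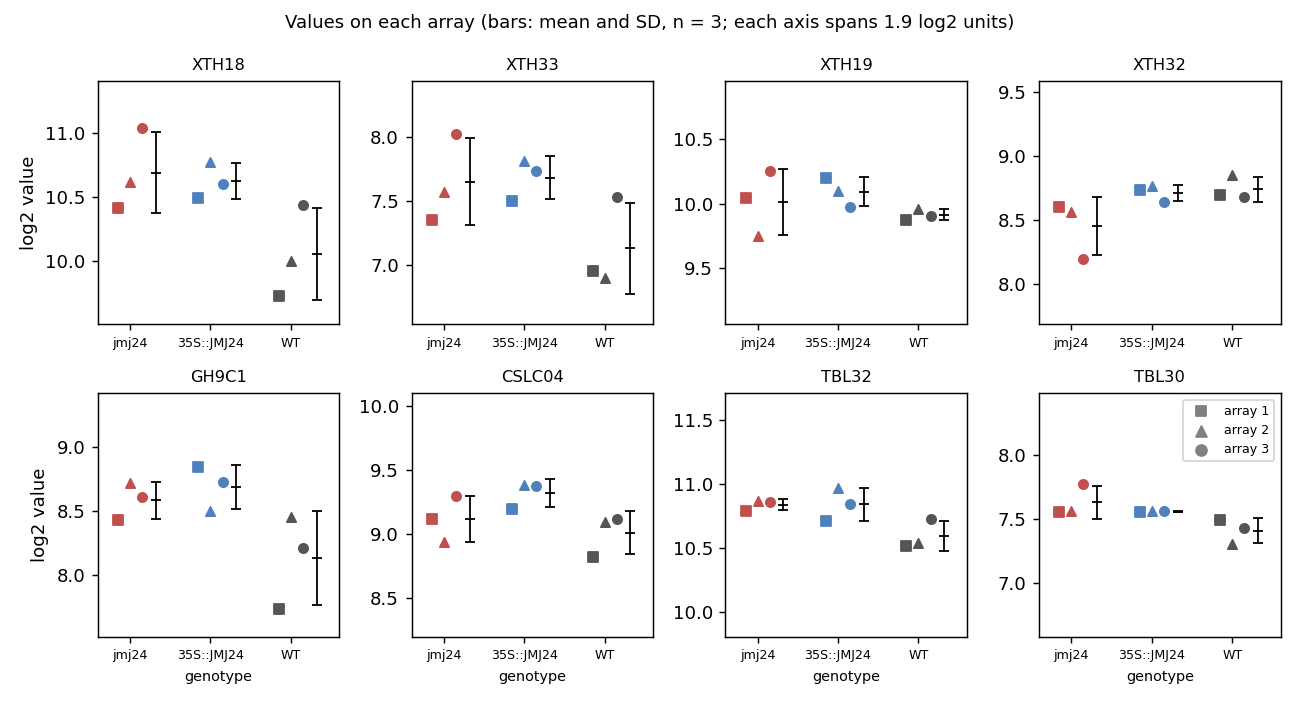
Log2 value of 8 members on each array by genotype (squares, triangles and circles are arrays 1, 2 and 3; bars are the mean and SD, n = 3); each vertical axis spans the same number of log2 units. In XTH18 all 35S::JMJ24 values lie above wild type, in XTH32 all jmj24 values lie below wild type, and wild type 1 is the lowest array in XTH18, GH9C1 and CSLC04.

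GH9 endoglucanases had 8 of 15 members with a higher mean in jmj24 and 10 of 15 in 35S::JMJ24, and none passed. Their median differences were 0.0167 and 0.0411, and turned to -0.0192 in jmj24 without wild type 1. Without the arrays numbered 1 they were -0.0326 and 0.00359. GH9C1 (AT1G48930), of the class that carries a carbohydrate-binding module behind its catalytic domain, differed most. It read 8.43, 8.71 and 8.61 in jmj24, 8.84, 8.50 and 8.72 in 35S::JMJ24, and 7.73, 8.46 and 8.21 in wild type. All 35S::JMJ24 values lay above wild type, wild type 1 was far below the other 8 arrays, and jmj24 1 lay just under wild type 2. The difference from wild type was 0.55 in 35S::JMJ24 (SE 0.171, adjusted p = 0.542) and 0.45 in jmj24 (adjusted p = 0.339). Without wild type 1 these were 0.35 and 0.25, and without the 3 arrays numbered 1 they were 0.28 and 0.33. Of the other members of its class, GH9C2 read -0.16 in jmj24 and -0.13 in 35S::JMJ24, and the dim GH9C3 -0.07 and -0.01. GH9C2 read -0.02 and 0.02 without wild type 1, its highest array.

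GH9A4 had the smallest p of all members in 35S::JMJ24, at a signal below the mark of background. It read 3.86, 4.01 and 4.18 in jmj24, 4.13, 4.13 and 4.24 in 35S::JMJ24, and 3.86, 3.81 and 3.92 in wild type, a difference of 0.30 in 35S::JMJ24 (SE 0.0851, adjusted p = 0.508). All 35S::JMJ24 values lay above wild type, and the mutant spanned both. GH9A3, of the membrane-anchored class that includes KORRIGAN, varied over 1.25 log2 units across the 9 arrays and read 0.27 in jmj24 and 0.15 in 35S::JMJ24. Wild type 1 was its lowest array at 6.25, and without it GH9A3 read 0.02 and -0.10. GH9B12 and GH9B17, both dim, read -0.27 and -0.19 in jmj24 (adjusted p = 0.47 and 0.427), the former -0.14 without wild type 3. In 35S::JMJ24 they read -0.05 and -0.18 (adjusted p = 0.934 and 0.671). GH9B13 had the largest p of the family (F test, adjusted p = 0.953), with 0.07 in jmj24 and 0.04 in 35S::JMJ24, or 0.20 and 0.17 without wild type 1. GH9B7 had the lowest SD within genotypes of the 65 members, 0.042, and differences of -0.03 and 0.04.

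TBL genes had small differences from wild type. In jmj24 13 of 22 had a higher mean, with a median difference of 0.0226, and in 35S::JMJ24 14 of 22, with a median of 0.0492. None passed. Without the probe sets at or under the mark of background the medians were 0.113 and 0.0663. Over all alternatives the median ran from 0.0226 to 0.113 in jmj24 and from 0.00493 to 0.081 in 35S::JMJ24. Differences ran from -0.23 to 0.35 in jmj24 and from -0.20 to 0.25 in 35S::JMJ24. Among the genes known for xylan acetylation, TBL32 (AT3G11030) read 10.79, 10.87 and 10.86 in jmj24, 10.72, 10.97 and 10.85 in 35S::JMJ24, and 10.52, 10.54 and 10.73 in wild type. The jmj24 values lay above wild type, and those of 35S::JMJ24 overlapped it at their lowest array. Its difference was 0.25 in jmj24 (SE 0.0849, adjusted p = 0.286) and 0.25 in 35S::JMJ24 (adjusted p = 0.607). Its probe set carries the suffix of those that match more than 1 transcript, so related genes may add to its signal.

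TBL30 (AT2G40160), also of the xylan group, read 7.55, 7.56 and 7.78 in jmj24, 7.55, 7.56 and 7.56 in 35S::JMJ24, and 7.49, 7.30 and 7.43 in wild type. Both lines lay above wild type on every array, by a mean of 0.22 in jmj24 (adjusted p = 0.304) and 0.15 in 35S::JMJ24 (adjusted p = 0.686). TBL28, its neighbour on chromosome 2 and another xylan acetylation gene, read -0.14 in jmj24 and -0.06 in 35S::JMJ24, or -0.07 and 0.01 without wild type 1. TBL34, also of that group and dim, read 5.56, 5.25 and 5.25 in jmj24, 5.94, 5.60 and 5.79 in 35S::JMJ24, and 5.74, 5.61 and 5.31 in wild type. The lines did not overlap each other and wild type overlapped both, with a difference of -0.42 between jmj24 and 35S::JMJ24 (SE 0.135, adjusted p = 0.53). TBL35, of the same group, read 0.13 in jmj24 and 0.00 in 35S::JMJ24. The mannan acetylation genes TBL23, TBL25 and TBL26 read 0.12, -0.05 and -0.23 in jmj24 and 0.06, -0.00 and -0.19 in 35S::JMJ24. The values of the dim TBL26 turned on wild type 1, which read 6.16 where the other arrays read 5.32 to 5.66. Without it they were 0.02 in jmj24 and 0.06 in 35S::JMJ24.

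TBL41 (AT3G14850) read 7.87, 7.96 and 7.84 in jmj24 against 7.54, 7.78 and 7.73 in wild type, with 35S::JMJ24 at 7.66, 7.76 and 7.80. All jmj24 values lay above the other arrays, by 0.21 over wild type (adjusted p = 0.334; 0.14 without wild type 1) and 0.15 over 35S::JMJ24 (adjusted p = 0.856). TBL21, singled out after its values were seen, had the largest TBL difference in jmj24 (0.35, adjusted p = 0.359), with an overlap between groups, while its neighbour TBL19 read -0.06. TBL36 read -0.08 in jmj24 and -0.06 in 35S::JMJ24 and had the largest p of the family (F test, adjusted p = 0.945).

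Among CSL genes, 6 of 7 had a higher mean in jmj24 (median 0.0753) and 3 of 7 in 35S::JMJ24 (median -0.0279), and none passed. Without wild type 1 the medians were 0.00986 and -0.089, without wild type 3 the latter was 0.0838, and without the dimmer 50% of probe sets the former was 0.00261. The CSLC genes, which encode synthases of the xyloglucan backbone, were all 4 above wild type in jmj24 and 3 of 4 in 35S::JMJ24. CSLC04 (AT3G28180) read 9.12, 8.94 and 9.29 in jmj24, 9.19, 9.38 and 9.38 in 35S::JMJ24, and 8.82, 9.10 and 9.12 in wild type. All 35S::JMJ24 values lay above wild type, by a mean of 0.31 (SE 0.114, adjusted p = 0.623), and jmj24 overlapped both. Without wild type 1 the differences were 0.21 in 35S::JMJ24 and 0.01 in jmj24, where they had been 0.31 and 0.11. CSLC6 read 0.07 and 0.08, CSLC5 0.08 and 0.14, and the dim CSLC12 0.17 and -0.03, each in jmj24 and then in 35S::JMJ24. With wild type 1 left out CSLC12 read 0.05 and -0.15, CSLC5 0.18 and 0.24, and CSLC6 0.02 and 0.04. CSLA03, a glucomannan synthase gene, read 0.00 in jmj24 and -0.15 in 35S::JMJ24 (adjusted p = 0.996 and 0.779), the latter -0.02 without 35S::JMJ24 2. CSLA01 read 0.09 and -0.08, or -0.02 and -0.19 without wild type 1. CSLD2, known from the tip growth of root hairs, read -0.01 and -0.07 and had the largest p of the family (F test, adjusted p = 0.946).

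Expansins had no common direction. Of 8 EXPA genes 4 had a higher mean in jmj24 and 2 in 35S::JMJ24, with medians of 5.97e-05 and -0.0315, and of 4 EXPB genes 2 had a higher mean in each line. None passed. EXPA9 (AT5G02260) read 6.12, 6.16 and 6.18 in jmj24, 6.14, 6.21 and 6.25 in 35S::JMJ24, and 6.14, 5.73 and 6.04 in wild type. Wild type 2 was lower than the other 8 arrays, and wild type 1 lay among the values of the lines. The difference was 0.23 in 35S::JMJ24 (SE 0.0992, adjusted p = 0.655) and 0.19 in jmj24 (adjusted p = 0.514). Without wild type 2 these were 0.11 and 0.06. EXPA4 read 0.18 in jmj24 and 0.10 in 35S::JMJ24 (adjusted p = 0.679 and 0.881).

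EXPA8 (AT2G40610) had the largest spread between arrays of any member, with an SD within genotypes of 0.405. It read 9.50, 8.88 and 8.34 in jmj24, 9.28, 9.31 and 8.78 in 35S::JMJ24, and 9.32, 9.31 and 8.88 in wild type, so array 3 was lowest in each genotype. Its difference of -0.26 in jmj24 has a 95% interval from -0.87 to 0.34 (adjusted p = 0.75), and became 0.02 without jmj24 3 and -0.49 without the arrays numbered 1. EXPB3 (AT4G28250) was set by a single low array, reading 10.26, 9.42 and 10.30 in 35S::JMJ24 against 10.44, 10.33 and 10.02 in wild type. Its difference of -0.27 in 35S::JMJ24 (adjusted p = 0.784) became 0.01 without 35S::JMJ24 2. EXPA16 had a low 35S::JMJ24 1 (5.60), and its -0.19 became 0.06 without that array. EXPB1 read -0.18 in jmj24 and -0.06 in 35S::JMJ24 (adjusted p = 0.705 and 0.934), the former -0.03 without jmj24 3. EXPB2 and EXPB5, both dim, read 0.09 and 0.08 in jmj24 and 0.07 and 0.14 in 35S::JMJ24. EXPA20 read 0.01 and -0.01 and had the largest p of all 65 members (F test, adjusted p = 0.991).

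**Figure D3:**
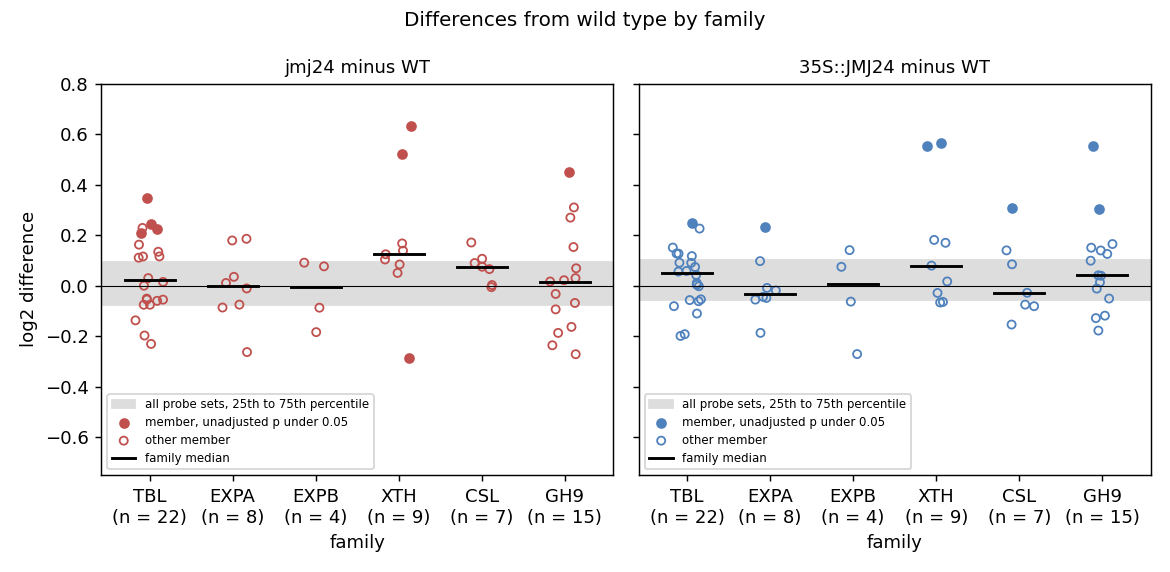
Log2 difference of each member from wild type by family, in jmj24 (left) and 35S::JMJ24 (right); filled points have an unadjusted p under 0.05, lines are family medians and the grey band runs from the lower to the upper quartile of all probe sets. Most members lie near the band, and XTH18, XTH33 and GH9C1 stand highest in both panels, which share the wild-type arrays.

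Over all 65 members, 41 had a higher mean in jmj24 than in wild type (63.1%, against 52.1% of all probe sets), with a median difference of 0.0352. In 35S::JMJ24 37 had a higher mean (56.9%, against 57.1%), with a median of 0.0397. Both comparisons use the same wild-type arrays, so their directions are not separate evidence. Side by side, 32 members lay above wild type in both lines, 19 lay below in both and 14 lay on opposite sides. Without the members below the mark of background the median was 0.0721 in jmj24 and 0.0404 in 35S::JMJ24.

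In the direct comparison of jmj24 with 35S::JMJ24, which does not use wild type, 30 members were higher in jmj24 (46.2%, against 43% of all probe sets) and 35 lower, with a median of -0.0139 against -0.0167 over all probe sets. At an unadjusted p under 0.05 limma gave 2 members, TBL34 and XTH32, or 3.08% against 6.33% of all probe sets. Groups did not overlap in 4 members (6.15%, against 10.2%). GH9 genes were lower in jmj24 in 12 of 15 cases, with a family median of -0.0824 and a range from -0.22 to 0.18. Of these 15 genes 9 are dim, and 0 had an unadjusted p under 0.05 between the lines (limma). XTH18, XTH33 and GH9C1, the members farthest from wild type, differed by 0.07, -0.03 and -0.10 between the lines. Their 95% intervals ran from -0.37 to 0.50, from -0.49 to 0.42 and from -0.49 to 0.28. The data are compatible with a difference between the lines within these bounds.

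**Figure D4:**
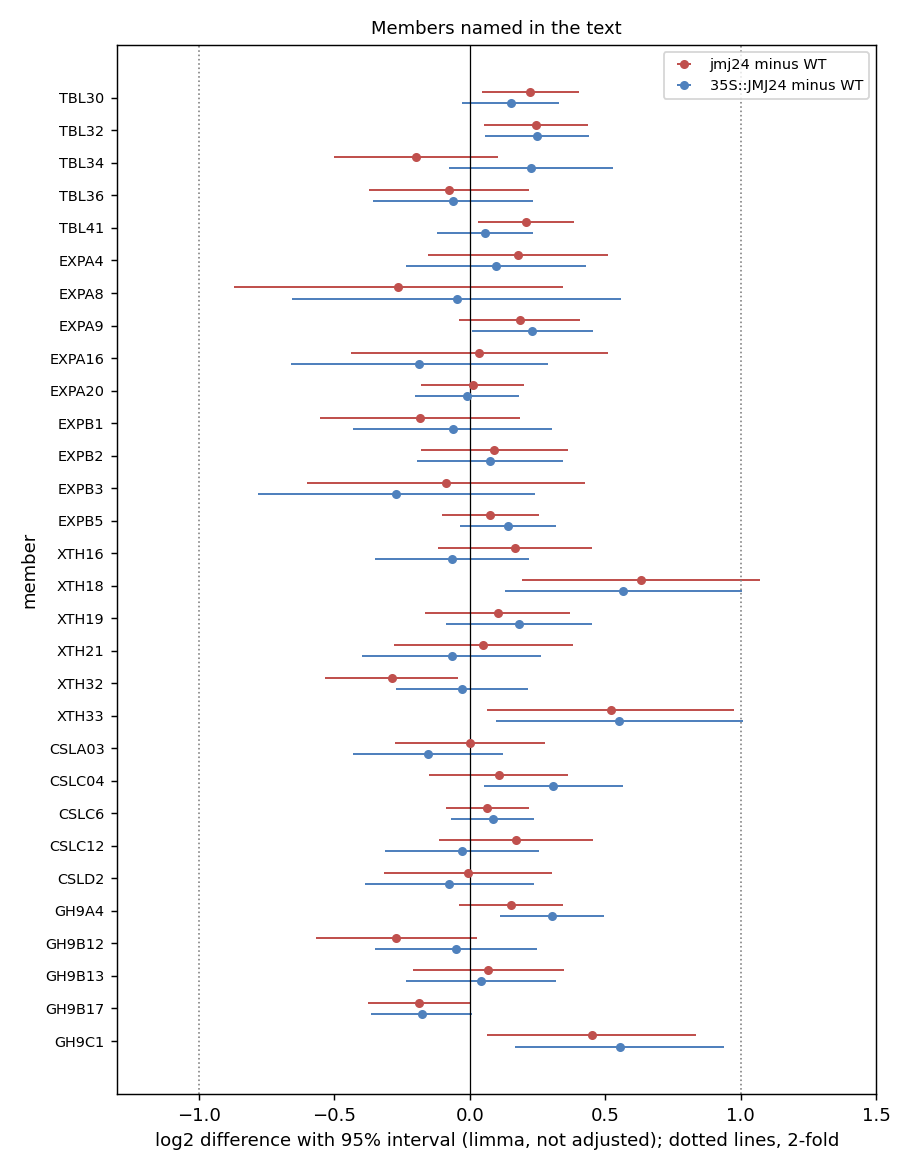
Log2 difference from wild type with its 95% interval (limma, 9 arrays, not adjusted for the number of genes) for 30 members chosen by rank of p within their family, in jmj24 and in 35S::JMJ24; dotted lines mark 2-fold. Nearly all intervals lie within 2-fold, and only those of XTH18 in jmj24 and of XTH18 and XTH33 in 35S::JMJ24 reach past it.

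Array 1 stood apart in each genotype for some members, as it did for many other probe sets. Array 1 was higher than arrays 2 and 3 in each of the 3 genotypes for 8 members (12.3%, against 7.67% of all probe sets) and lower in each for 7 (10.8%, against 10% of all), together 15 (23.1%, against 17.7%). Among the 8, GH9C2 had the largest mean gap, with array 1 above the mean of arrays 2 and 3 by 0.43 in jmj24, 0.48 in 35S::JMJ24 and 0.43 for wild type. The gaps of EXPA21 were 0.32, 0.35 and 0.32 in the same order of genotypes, and those of EXPB1 0.50, 0.28 and 0.25. Among the 7, GH9A3 differed by -0.61, -0.22 and -0.75, EXPA16 by -0.36, -0.73 and -0.34, and XTH18 by -0.41, -0.19 and -0.49. The gap of GH9A3 in wild type exceeds the largest difference of any member between genotypes. What the replicate number stands for is not stated in the labels. Its part in the genotype differences was examined only by leaving these arrays out and by fitting the number as a block. The block changed the call of XTH18 in jmj24, as given with the other alternatives below.

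**Figure D5:**
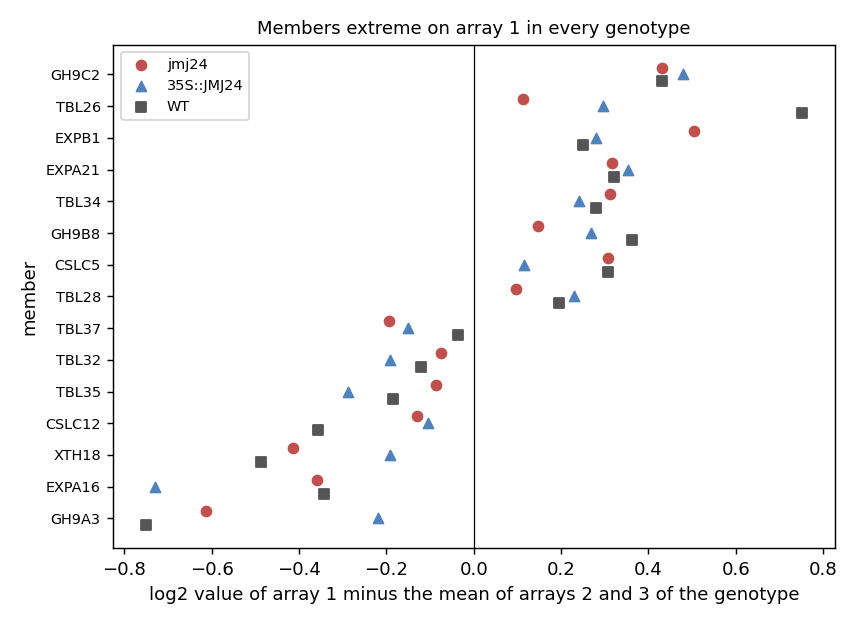
Log2 value of array 1 minus the mean of arrays 2 and 3 of the same genotype (jmj24 circles, 35S::JMJ24 triangles, wild type squares) for the 15 members in which array 1 was the highest or the lowest of its genotype in all 3 genotypes. Each member keeps its side of 0 in every genotype, ordered by the mean of the 3 gaps from GH9A3 at the low end to GH9C2 at the high end.

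Several members lie beside each other in the genome, in the gene order of the RefSeq table. The pairs with no protein-coding gene between them are TBL28 and TBL30, TBL21 and TBL19, XTH18 and XTH19, GH9B11 and GH9B12, and the run GH9B16, GH9B17 and GH9B18. In jmj24 TBL28 read -0.14 and TBL30 0.22, TBL21 0.35 and TBL19 -0.06, and XTH18 0.63 and XTH19 0.10. GH9B11 read 0.03 there and GH9B12 -0.27. Of these pairs, only XTH18 and XTH19 lay on the same side of wild type in jmj24. In 35S::JMJ24 these and TBL21 (0.13) with TBL19 (0.04) did, and the other pairs did not. In the GH9 run the values in jmj24 were 0.02, -0.19 and 0.02, and in 35S::JMJ24 they were 0.14, -0.18 and 0.10. None of these differences passed the test in the fit without the replicate number. TBL19, GH9B11, GH9B12 and all genes of the GH9 run are dim, and neighbours were not tested against each other.

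Of 16 further lists of wall genes, taken by symbol prefix, 6 had a gene that the annotation ties to a single-gene probe set, with 11 genes in all. Genes of the other lists may lie on probe sets that the annotation leaves unnamed. With limma 0 of the 11 passed in any comparison. At an unadjusted p under 0.05 there were 2 in jmj24, 1 in 35S::JMJ24 and 0 between the lines, against 11.7%, 7.43% and 6.33% of all probe sets. Means were higher than wild type for 9 in jmj24 and 8 in 35S::JMJ24, against 52.1% and 57.1% of all probe sets. The expansin-like gene EXLB1 (AT4G17030) had the smallest p, at 6.12 ± 0.182 in jmj24, 6.39 ± 0.141 in 35S::JMJ24 and 6.65 ± 0.243 in wild type (SD, n = 3). Its difference was -0.53 in jmj24 (SE 0.137, adjusted p = 0.134) and -0.26 in 35S::JMJ24 (adjusted p = 0.686). GAUT15, of a family of pectin galacturonosyltransferases, read 0.30 and 0.17, and IRX15-L, of a pair of genes needed for normal xylan, 0.04 and 0.23, each in jmj24 and then in 35S::JMJ24. The polygalacturonase gene ADPG1 read 0.47 and 0.46 (adjusted p = 0.566 and 0.712). The pectin methylesterase genes PME61, which is dim, and PMEPCRF read 0.10 and 0.03 in jmj24 and 0.09 and 0.14 in 35S::JMJ24. The laccase gene LAC16, also dim, read -0.17 in jmj24 and -0.12 in 35S::JMJ24.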

How the data were processed

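The values are log2 summaries of scanner signals, 1 for each of 22810 probe sets and 9 arrays, made by the authors with affy per the submitters' processing notes. Its version, the background correction and the normalization were not stated in the labels or headers. No source names the scale, and log2 was read from the values (2.634 to 14.7). They were used unchanged. Probe sets were named from GEO's platform annotation, with symbols brought up to date by the RefSeq genes of TAIR10.1. Of 22746 probe sets without controls, 13513 name 1 gene, 503 several and 8730 none here.

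With limma 3.58.1 in R 4.3.3, the 3 genotype means were fitted over the 9 arrays together (6 residual degrees of freedom), with two-sided moderated tests and Benjamini-Hochberg adjustment over all 22746 probe sets. The fit was tested on simulated data. Members with values in the text are the 3 of smallest p per family against wild type in each line, the 2 of smallest p between the lines, and the smallest and largest p of the F test, with others given to show families, neighbours and arrays and chosen after their values were seen. Members and lists were chosen with earlier results of these data known. Nothing in the labels says that replicates were separate cultures, so the spread behind each p-value may be technical. The number of arrays limits the precision. No sequences are printed, because no table of sequences was used here. Alternatives were the replicate number as a block, renewed normalization, filters, array weights, another variance prior, fewer groups, and arrays left out. The prefix PME also took PMEAMT, a methyltransferase of another pathway, which was left out.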

Additional observations from a re-analysis of the deposited data

How the results depend on the processing

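The count of members past the threshold stayed at 0 in all 4 tests under every alternative but 1: with the replicate number as a block 1 member, XTH18, passed in jmj24 (0.63, adjusted p = 0.0436). Over its other alternatives, arrays left out included, the adjusted p of XTH18 in jmj24 ran from 0.0634 (array weights) to 0.555 (without jmj24 3). Same-numbered arrays did not meet the rule for pairs: of 9 such pairs 7 had a correlation of deviations over 0.1 (range 0.0143 to 0.438), and 6 of 9 arrays correlated best with an array of their own number. The block moved the calls over all probe sets from 259 to 607 in jmj24, from 56 to 76 between the lines, and left 4 in 35S::JMJ24. Those calls ran over all alternatives from 53 to 641 in jmj24, 1 to 8 in 35S::JMJ24 and 2 to 76 between the lines. The median over members was small and moved. In jmj24 (0.0352) it was 0.0721 above the mark of background, 0.069 without the dimmer 50% of probe sets (both hold fewer members), and 0.0194 to 0.0647 with 1 array left out. In 35S::JMJ24 (0.0397) it was 1.71e-05 after renewed quantile normalization, 0.0107 without the dimmer 50% and 0.0199 without the arrays numbered 1. Between the lines (-0.0139) it was 0.0146 with median centring, 0.0175 without the arrays numbered 1, and -0.0291 to 0.0126 with 1 array left out. The cause of these shifts was not tested. Each member has 1 single-gene probe set, and platform symbols gave the same 65, so these choices changed nothing. For named members, the sign of a difference that passed in no setting turned in 97 of 1548 recomputed values, and no difference turned while past the threshold.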

Other observations

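Probe sets that name several genes were outside the rule for members, and 4 of them name wall genes of these families. The probe set for GH9B9 and GH9B10 had a mean of 6.20 ± 0.241 (SD, n = 3) on the jmj24 arrays, 6.07 ± 0.0801 on those of 35S::JMJ24 and 5.86 ± 0.27 on those of wild type (log2 levels), a difference of 0.35 in jmj24 (limma adjusted p = 0.408) and 0.21 in 35S::JMJ24 (adjusted p = 0.747). That for GH9B14 and GH9B15 read -0.00 and -0.17 against wild type, that for EXPA22 and EXP26 0.09 and -0.11, and that for EXPA23 and EXPA25 0.07 and 0.10, each in jmj24 and then in 35S::JMJ24. The probe sets for GH9B14 and GH9B15 and for EXPA23 and EXPA25 are dim. None of the 4 passed, and the signal of the genes within a probe set cannot be told apart.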
